A study of Mus musculus with 8 samples.

Results

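Acta2, Tagln, Cnn1, Myl9, Lox, Cav1, Cavin2, Ankrd1, Thy1 and Postn are mesenchymal and contractile genes that cultured fibroblasts express, and fibroblasts are the usual feeder layer under mouse embryonic stem cells (ES cells). They were followed as 10 rows of a count table of 36255 genes, selected by symbol, and all 10 were found. They were proposed with the levels of the 4 groups already known, so their own levels and fold changes are given as a description, without p-values. The series compares ES cells and embryoid bodies (clumps of cells formed as ES cells leave the undifferentiated state) that carry or lack Skp1a, the adaptor that joins F-box proteins to the SCF ubiquitin ligase. The 4 groups are day 2 embryoid bodies (EBd2) labelled Skp1a KO, EBd2 labelled Skp1a fl/fl (floxed and undeleted), ES cells labelled KO and ES cells labelled fl/fl. Each group holds 2 poly(A) RNA libraries, numbered by lot (KO EBd2 lots 1 and 2, fl/fl EBd2 lots 1 and 12, KO ES cells lots 1 and 12, fl/fl ES cells lots 1 and 2). The labels give a standard ES or embryoid body medium and name no feeder layer, strain, recombinase or time of deletion. They do not say whether the lots are separate cultures or clones, so the errors below cover the spread between the libraries of a group, and that spread may be technical.

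In fibroblasts and smooth muscle, the contractile genes encode parts of the actin and myosin filaments that pull on the matrix, and many of them are driven by serum response factor (SRF) and its MRTF coactivators. Lox and Postn act in the matrix that the cells lay down, Cav1 and Cavin2 build the membrane pits called caveolae, Ankrd1 is a classic target of the YAP and TEAD factors, and Thy1 is a surface glycoprotein. None of these genes is specific to feeder cells. Smooth muscle, endothelium, parietal endoderm, early mesoderm and neurons use some of them too.

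Total counts were 9260644 and 10055667 in KO EBd2, 7858452 and 9133497 in fl/fl EBd2, 22459935 and 21559558 in KO ES cells, and 23343471 and 21545868 in fl/fl ES cells. The targeted gene Skp1a (chromosome 11, 52231995 to 52246858, + strand, GRCm38) was at 287.7 ± 2.67 CPM in KO EBd2 and 395.3 ± 8.74 CPM in fl/fl EBd2 (mean ± SD, n = 2 libraries). It was at 365.1 ± 5.35 CPM in KO ES cells and 425.2 ± 7.19 CPM in fl/fl ES cells, so the KO libraries are named by their label. CPM here are counts scaled to library size with TMM factors. The summed level of 10 naive pluripotency genes was 1367 to 1457 CPM in KO EBd2, 1006 to 1071 CPM in fl/fl EBd2, 2242 to 2244 CPM in KO ES cells and 2532 to 2556 CPM in fl/fl ES cells. The tissue field of the labels puts all KO libraries under ES cells and all fl/fl libraries under embryoid bodies, against the titles, which are followed here.

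The name feeder markers was checked against 30 other fibroblast identity and matrix genes. Of the 30, 26 had at least 100 counts in ES cells of each genotype, and Dcn, Lum, Fap and Twist2 had fewer. The collagen chain Col1a1 was at 318.4 CPM in KO ES cells and 296.0 CPM in fl/fl ES cells, and Col1a2 was at 159.5 and 135.3 CPM in the same groups. The proteoglycan Dcn, in contrast, was at 1.07 CPM in KO ES cells and 1.03 CPM in fl/fl ES cells. Its relative Lum was at 0.275 CPM in KO ES cells and 0.0918 CPM in fl/fl ES cells. The fibroblast activation protease Fap stayed between 0.586 and 0.788 CPM in the 4 ES cell libraries. These genes were picked out after their values were seen. Since the labels name no feeder layer, the 10 genes are called mesenchymal and contractile below, and whether any of their RNA came from feeder cells was not tested.

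All 10 genes were present in ES cells, and 7 of them were far lower in embryoid bodies of both genotypes. Per kilobase of merged exons, Tagln was the highest in fl/fl ES cells, at 35.1 CPM per kb, followed by Lox at 29.3 and Acta2 at 24.98 CPM per kb. Cav1 at 8.14, Myl9 at 7.67 and Thy1 at 5.80 CPM per kb formed the middle of the order. The lowest were Cnn1 at 2.46, Cavin2 at 2.15, Ankrd1 at 1.72 and Postn at 1.68 CPM per kb. In fl/fl ES cells only Ankrd1 and Postn overlapped between neighbours of that order. In KO ES cells the order was the same except that Myl9 stood above Cav1, and Lox and Acta2, at 31.2 and 29.4 CPM per kb, overlapped, as did Ankrd1 and Postn. Embryoid bodies had another order. In KO EBd2 it ran from Tagln at 12.8 through Thy1 at 7.95 and Myl9 at 4.58 CPM per kb to Cavin2 at 0.0600 and Ankrd1 at 0.0325 CPM per kb. In fl/fl EBd2 it was led by Thy1 at 8.08 and Myl9 at 6.98 CPM per kb, and Cavin2 had no counts.

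**Figure D1:**
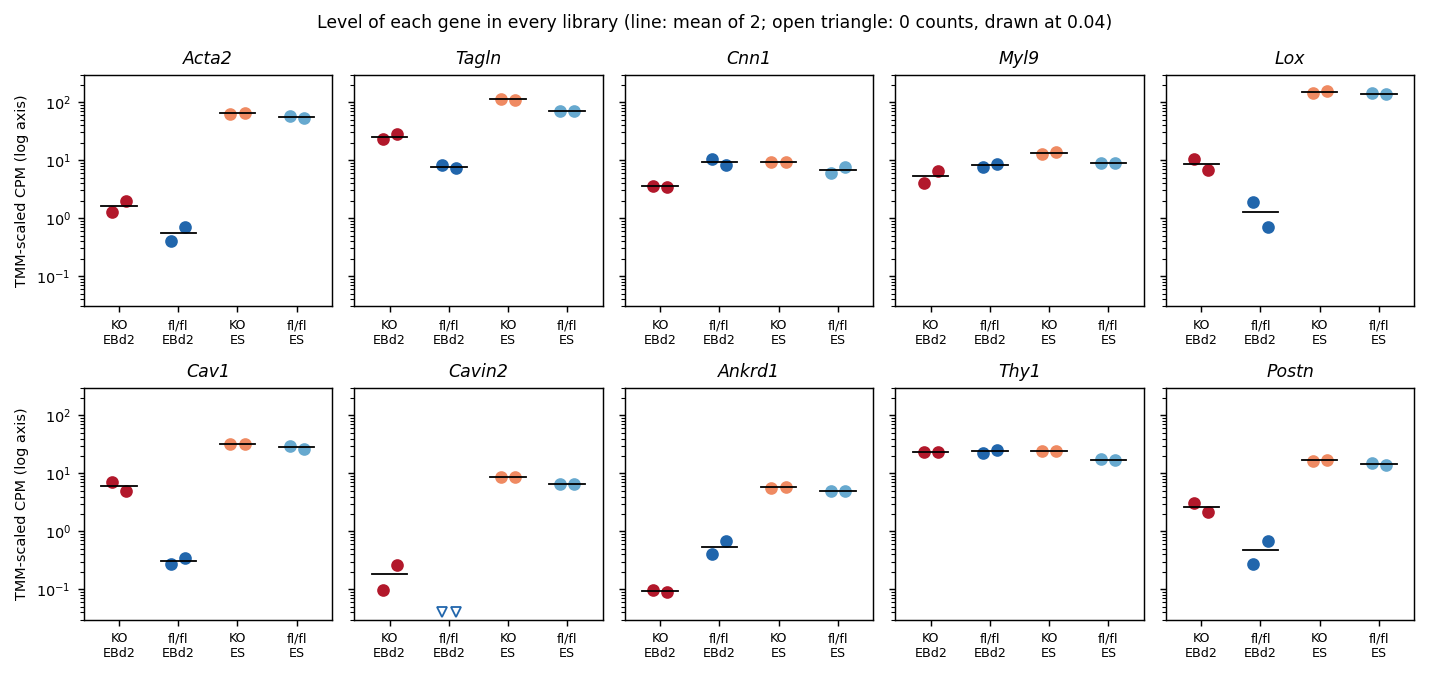
TMM-scaled CPM (log axis) of the 10 genes in each of the 8 libraries, with points for libraries and lines for the mean of 2. Acta2, Lox, Cav1, Cavin2, Ankrd1 and Postn lie far lower in both EBd2 groups than in both ES cell groups, Tagln less so, while Cnn1, Myl9 and Thy1 stay within a few-fold.

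Acta2 (chromosome 19, 34241090 to 34255590, - strand), the smooth muscle actin that marks contractile fibroblasts, nearly disappeared from embryoid bodies. Its level was 1.27 and 1.97 CPM in KO EBd2 and 0.405 and 0.692 CPM in fl/fl EBd2. In KO ES cells it was 62.9 and 66.3 CPM, and in fl/fl ES cells 56.9 and 52.8 CPM. The EBd2 libraries kept 2.51% of the ES cell level in KO and 1.0% in fl/fl. Between genotypes, KO libraries lay above both fl/fl libraries at each stage, by a log2 fold of 1.53 ± 0.44 in EBd2 (35 counts against 9) and 0.24 ± 0.06 in ES cells (± standard error here and below). Acta2 shares nearly identical coding sequence with the other actins, and the sources used here do not say how reads that match several genes were counted.

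Tagln (chromosome 9, 45929619 to 45936058, - strand), the actin-binding protein transgelin, kept more of its level. It was at 23.1 and 27.7 CPM in KO EBd2 and at 8.23 and 7.27 CPM in fl/fl EBd2, against 114.6 and 110.5 CPM in KO ES cells and 70.2 and 69.4 CPM in fl/fl ES cells. No KO library overlapped a fl/fl one at either stage. Of the 10 genes Tagln had the largest difference between genotypes in ES cells, a log2 fold of 0.69 ± 0.05, and its log2 fold in EBd2 was 1.72 ± 0.13. Exons of Tagln overlap those of the antisense gene Gm48529 over 1241 bases and of Pcsk7 over 108 bases on the other strand. The strand setting of the counting is not given, so reads of these genes and of Tagln cannot be told apart.

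Cnn1 (chromosome 9, 22099216 to 22109630, + strand) and Myl9 (chromosome 2, 156775420 to 156781658, + strand) went another way, although calponin and the regulatory myosin light chain work on the same filaments. Cnn1 was at 3.62 and 3.49 CPM in KO EBd2 and at 10.4 and 8.19 CPM in fl/fl EBd2, against 9.45 and 9.41 CPM in KO ES cells and 5.97 and 7.47 CPM in fl/fl ES cells. It was thus the lowest in KO EBd2 and about as high in fl/fl EBd2 as in KO ES cells. The log2 fold of KO over fl/fl was -1.37 ± 0.19 in EBd2 and 0.49 ± 0.13 in ES cells. Myl9 was at 4.12 and 6.53 CPM in KO EBd2 and at 7.69 and 8.54 CPM in fl/fl EBd2, against 12.8 and 13.6 CPM in KO ES cells and 8.89 and 8.94 CPM in fl/fl ES cells. Its log2 folds of KO over fl/fl, -0.60 ± 0.19 in EBd2 and 0.56 ± 0.12 in ES cells, had the same signs as those of Cnn1. In EBd2 the Myl9 value moved to -0.37 when libraries were scaled by size only.

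SRF binds a sequence called the CArG box, and TEAD factors bind CATTCC (the MCAT motif). RefSeq promoters (build GRCm38.p6, 300 bases from 250 before to 50 after the start) were found by symbol for 7 of the 10 genes, all but Tagln, Lox and Thy1. The CArG box was searched as CCWWWWWWGG, where W is A or T. Both motifs were searched on both strands as exact matches only, and no hits of the 2 overlapped. A CArG box stood in the promoter of Myl9, 161 bases before the start, and 1.63% of all 32851 promoters hold one. CATTCC, read as GGAATG on the gene's strand, stood once before Acta2, 146 bases from the start, and in 2 places before Ankrd1, 210 and 123 bases from the start. It occurs in 14.7% of all promoters. The 250 bases before each of these starts are shown because they hold those matches, which are in capitals. They are chr19:34255374-34255623 (- strand) for Acta2, chr2:156775214-156775463 (+ strand) for Myl9 and chr19:36119845-36120094 (- strand) for Ankrd1.
Acta2: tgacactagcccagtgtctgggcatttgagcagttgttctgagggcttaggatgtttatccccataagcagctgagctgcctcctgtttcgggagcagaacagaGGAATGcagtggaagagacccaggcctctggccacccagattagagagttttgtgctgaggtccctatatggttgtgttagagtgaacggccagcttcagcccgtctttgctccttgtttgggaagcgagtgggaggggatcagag
Myl9: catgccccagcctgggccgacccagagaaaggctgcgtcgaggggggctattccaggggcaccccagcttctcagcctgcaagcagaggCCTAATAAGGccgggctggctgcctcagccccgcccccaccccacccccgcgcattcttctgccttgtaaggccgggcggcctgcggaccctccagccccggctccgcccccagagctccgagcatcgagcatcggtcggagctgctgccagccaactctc
Ankrd1: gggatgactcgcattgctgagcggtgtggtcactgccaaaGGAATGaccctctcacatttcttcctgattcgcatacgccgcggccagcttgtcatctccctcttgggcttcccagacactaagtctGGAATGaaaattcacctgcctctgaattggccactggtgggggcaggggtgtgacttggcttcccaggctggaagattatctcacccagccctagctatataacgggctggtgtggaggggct
No match was found in the promoters of Cnn1, Cav1, Cavin2 and Postn, and no CArG box in those of Acta2 and Ankrd1. This says only that these exact letters are not in these windows. Sites that differ from them by a base were not searched, so SRF sites of that kind may be present.

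Among 30 actomyosin and SRF target genes, partners of the contractile genes, 10 rose and 10 fell in EBd2 against ES cells in KO. Of all tested genes, 31.7% rose and 33.1% fell there, so these counts were near the share of all genes. In fl/fl, 10 rose and 15 fell, beside 28.9% and 30.1% of all genes. The skeletal muscle actin Acta1 was at 0.786 CPM in KO EBd2 and 0.731 CPM in fl/fl EBd2, against 21.4 CPM in KO ES cells and 7.48 CPM in fl/fl ES cells. In KO against fl/fl EBd2, 17 of the 30 rose and 6 fell, where 30.7% of all tested genes rose and 31.5% fell, and the median log2 fold was 0.25 for the list and 0.00 for all genes. In ES cells 16 rose and 2 fell, where 10.9% of all genes rose and 12.8% fell, with a list median of 0.16. These counts and all adjusted p-values come from edgeR's quasi-likelihood test with Benjamini-Hochberg adjustment over all 16542 genes tested. As all lists were chosen with earlier results of these data known, their counts and p-values are a description. Caldesmon Cald1, which regulates actin and myosin contact, rose by 1.96 ± 0.04 in EBd2 (adjusted p = 4.75e-11) and by 0.48 ± 0.03 in ES cells (adjusted p = 8.50e-06). The SRF target Csrp1 rose in EBd2 (1.55 ± 0.05, adjusted p = 8.85e-10), while the cytoplasmic actin Actg1 fell there (-0.85 ± 0.03, adjusted p = 1.97e-09). In KO against fl/fl ES cells Acta1 rose (1.52 ± 0.10, adjusted p = 8.50e-06), as did tropomyosin Tpm1 (0.46 ± 0.04, adjusted p = 5.18e-05). The summed level of the list was 8138 to 8181 CPM in KO EBd2, 8879 to 8928 CPM in fl/fl EBd2, 8085 to 8254 CPM in KO ES cells and 7967 to 8048 CPM in fl/fl ES cells. The count of 16 genes that rose in ES cells became 10 after thinning to one depth. It was also lower whichever ES cell library was left out, in fits that rest on fewer libraries.

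Ankrd1 (chromosome 19, 36111961 to 36120099, - strand) was the one gene of the 10 that was nearly absent from embryoid bodies and lower there in KO than in fl/fl. It was at 0.0980 and 0.0894 CPM in KO EBd2 and at 0.405 and 0.692 CPM in fl/fl EBd2, which are 2 and 9 counts in sum. The ratio of KO over fl/fl EBd2 was 0.167, with a 95% counting interval of 0.0176 to 0.807. In ES cells Ankrd1 was at 5.62 and 5.84 CPM in KO and 4.99 and 4.93 CPM in fl/fl, a log2 fold of 0.21 ± 0.15. Of 14 YAP and TEAD genes, 8 rose and 3 fell in KO against fl/fl EBd2 (all genes, 30.7% and 31.5%), and 4 rose and 2 fell in ES cells (all genes, 10.9% and 12.8%). By edgeR the count of 2 became 0 with library size scaling, with lots as blocks and after thinning. It was also lower when any 1 of the 4 ES cell libraries was left out. The secreted YAP target Ccn1 rose by 1.90 ± 0.08 in EBd2 (adjusted p = 5.98e-09) and 0.50 ± 0.05 in ES cells (adjusted p = 5.53e-05), and the coactivator Wwtr1 (TAZ) rose by 1.12 ± 0.05 in EBd2 (adjusted p = 9.60e-09). Tead2 fell by 0.89 on the log2 scale in EBd2 (SE 0.04, adjusted p = 1.40e-08). In ES cells the phosphatase Ptpn14 (0.27 ± 0.04, adjusted p = 0.000781) and the receptor kinase Axl (0.38 ± 0.07, adjusted p = 0.00254) rose.

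Cav1 (chromosome 6, 17306335 to 17341452, + strand), the membrane protein that shapes caveolae, had the widest measured gap between genotypes in embryoid bodies. It was at 7.05 and 5.01 CPM in KO EBd2 and at 0.270 and 0.346 CPM in fl/fl EBd2, or 128 counts against 5. The ratio was 19.2, and its 95% interval from counting error ran from 8.04 to 60.3. ES cells showed little difference, with 31.8 and 32.2 CPM in KO and 29.3 and 26.8 CPM in fl/fl (log2 fold 0.19 ± 0.08). EBd2 thus kept 18.9% of the ES cell level in KO and 1.10% in fl/fl. Its partner Cavin2 (chromosome 1, 51289126 to 51302960, + strand), a coat protein of caveolae, did not share that level. Cavin2 had 1 and 3 counts in KO EBd2 and 0 in both fl/fl EBd2 libraries, and the group sum of 0 allows a level up to 0.187 CPM, so no fold is given between these groups. It was at 8.61 and 8.67 CPM in KO ES cells and 6.56 and 6.60 CPM in fl/fl ES cells, at least 35.2-fold above fl/fl EBd2 if the group floor of 3 counts is put in its place.

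Most other caveolar genes were also higher in KO embryoid bodies. Of 7 tested partners, 5 rose and 1 fell in KO against fl/fl EBd2, beside 30.7% and 31.5% of all genes, and the 1 was not called without the fl/fl EBd2 library of lot 12 or with library size scaling. In ES cells 3 rose, beside 10.9% of all genes, and the other 4 were not called, while Cav3 was at 0 counts in all libraries. The coat protein Cavin1 was at 92.9 ± 5.07 CPM in KO EBd2 and 14.3 ± 4.32 CPM in fl/fl EBd2 (SD, n = 2 each), a rise of 2.68 ± 0.11 (adjusted p = 4.33e-09). In ES cells Cavin1 rose by 0.46 ± 0.06 (adjusted p = 0.000576). Ehd2, an ATPase at the neck of caveolae, rose by 1.38 ± 0.13 in EBd2 (adjusted p = 2.60e-06) and 0.41 ± 0.09 in ES cells (adjusted p = 0.00704). Pacsin2, which bends membrane, rose by 0.34 ± 0.06 in EBd2 (adjusted p = 0.000729). Cav2 rose by 0.52 ± 0.13 in ES cells (adjusted p = 0.0131). In ES cells 1 caveolar gene rose, in place of 3, without the KO library of lot 1 or without the fl/fl library of lot 1. The edgeR call of Cav2 there was lost in both cases (adjusted p = 0.104 and 0.0807) and without the fl/fl library of lot 2 (adjusted p = 0.0765), in the blocked fit (0.0542), in thinned counts (0.45) and by DESeq2 (0.174), and that of Ehd2 in the first 2 (0.0520 and 0.0572) and by DESeq2 (0.0886).

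Lox (chromosome 18, 52516067 to 52529867, - strand), the lysyl oxidase that cross-links collagen and elastin, had the highest CPM of the 10 genes in ES cells. It was at 10.3 and 6.71 CPM in KO EBd2 and 1.89 and 0.692 CPM in fl/fl EBd2, against 143.5 and 154.4 CPM in KO ES cells and 141.5 and 138.6 CPM in fl/fl ES cells. ES cells of the 2 genotypes were thus close, with a log2 fold of 0.09 ± 0.06, and the gap of 2.75 ± 0.37 in EBd2 stands on different amounts left, 5.71% of the ES cell level in KO and 0.921% in fl/fl. Postn (chromosome 3, 54361109 to 54391037, + strand), the matricellular protein periostin, was at 3.13 and 2.15 CPM in KO EBd2 and 0.270 and 0.692 CPM in fl/fl EBd2. In ES cells it was at 16.4 and 17.1 CPM in KO and 15.1 and 14.1 CPM in fl/fl. Its log2 folds of KO over fl/fl were 2.38 ± 0.40 in EBd2 (56 counts against 8) and 0.20 ± 0.10 in ES cells, so it followed the pattern of Lox.

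Among 12 genes for lysyl oxidases and elastic matrix, 8 rose and 3 fell in KO against fl/fl EBd2 (median log2 fold 1.17), beside 30.7% and 31.5% of all genes. In ES cells 4 rose, beside 10.9% of all genes, and the other 8 were not called (median 0.34). The 4 became 2 with lots as blocks. The procollagen protease Bmp1, which also activates lysyl oxidase, rose by 2.98 ± 0.10 in EBd2 (adjusted p = 8.00e-10) and 0.43 ± 0.07 in ES cells (adjusted p = 0.00138). The Lox relatives Loxl2 (1.35 ± 0.08, adjusted p = 4.03e-08) and Loxl4 (4.81 ± 0.38, adjusted p = 6.40e-07) rose in EBd2. In ES cells the latent TGF-beta binding protein Ltbp1 (0.37 ± 0.07, adjusted p = 0.00231) and the elastic fibre protein Efemp2 (0.39 ± 0.07, adjusted p = 0.00295) rose, the last with lots as blocks at adjusted p = 0.0568. TGF-beta raises several of the 10 genes in fibroblasts. Of 15 TGF-beta genes, 10 rose and 4 fell in EBd2 (all genes, 30.7% and 31.5%), and 3 rose and 4 fell in ES cells (all genes, 10.9% and 12.8%). The 3 became 1 without the KO ES library of lot 12, and the 4 that fell in EBd2 became 2 without the fl/fl EBd2 library of lot 12. The ligand Tgfb1 rose by 2.44 ± 0.10 in EBd2 (adjusted p = 3.12e-09) and 0.58 ± 0.07 in ES cells (adjusted p = 0.000315). The SMAD antagonist Skil fell in EBd2 (-1.39 ± 0.05, adjusted p = 1.97e-09). The antagonists Ski (-0.29 ± 0.03, adjusted p = 0.000184) and Smad7 (-0.32 ± 0.05, adjusted p = 0.000885) fell in ES cells.

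Thy1 (chromosome 9, 44043384 to 44048579, + strand), a glycoprotein of fibroblasts, neurons and T cells, was at a like level in both EBd2 groups and in KO ES cells. It was at 23.9 and 23.7 CPM in KO EBd2 and 22.5 and 25.9 CPM in fl/fl EBd2, against 23.95 and 24.6 CPM in KO ES cells and 17.5 and 17.2 CPM in fl/fl ES cells. The fl/fl ES cells alone stood lower, and the genotypes overlapped in EBd2. The log2 fold of KO over fl/fl was -0.03 ± 0.09 in EBd2, a value whose sign turned with library size scaling (0.20), and 0.48 ± 0.07 in ES cells.

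Between stages, 7 of the 10 genes were called lower in EBd2 in both genotypes, and Cnn1, Myl9 and Thy1 were not. In EBd2 against ES cells, 9 of the 10 were called lower in KO and Thy1 was not called, where 64.8% of all tested genes were called, 33.1% lower and 31.7% higher. For all 10, both KO EBd2 libraries lay below both KO ES cell libraries, as for 41.8% of all genes, while 41.2% lay above. In fl/fl, 7 were called lower (Myl9 was not called) and 2 higher (Cnn1 and Thy1), and Cnn1, at 0.46, stood at 0.29 without the fl/fl EBd2 library of lot 1 and 0.30 without the fl/fl ES library of lot 1 and was then not called, nor was it by DESeq2 or after thinning, where 59.0% of all genes were called, 30.1% lower and 28.9% higher. Both fl/fl EBd2 libraries lay below both fl/fl ES cell libraries for 8 of the 10 and above them for 2, against 40.5% and 38.4% of all genes. The median log2 fold over the 10 was -2.54 in KO and -4.01 in fl/fl, where the median of all genes was 0.00 in KO and -0.02 in fl/fl. EBd2 held 17.7% of the summed CPM of the 10 genes in ES cells in KO and 14.9% in fl/fl. In bulk RNA, fewer cells of a type and less RNA per cell cannot be told apart. The choice of the genes used these contrasts, so nothing is read from the counts.

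**Figure D2:**
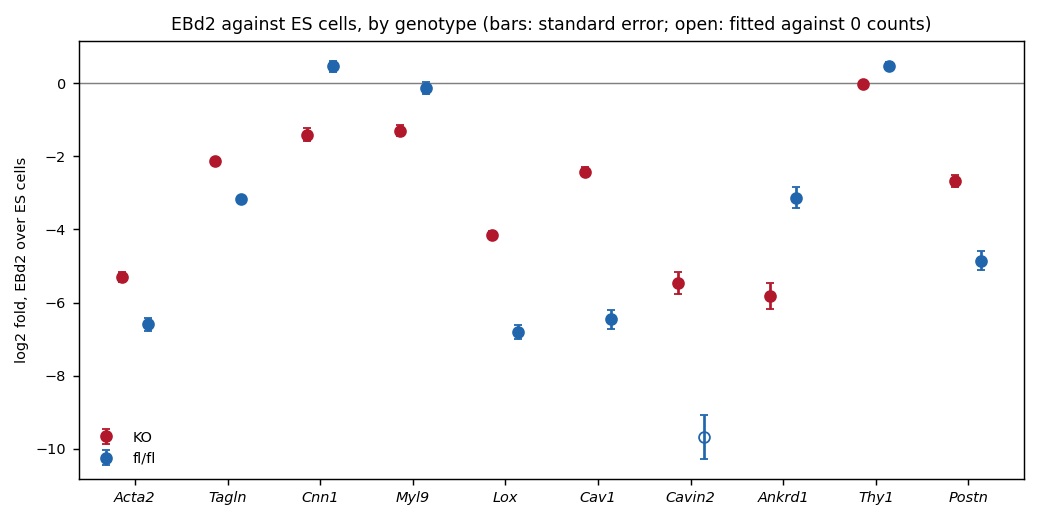
Log2 fold of EBd2 over ES cells for each gene in KO (red) and fl/fl (blue), with standard errors. Lox stands at -4.14 in KO and -6.81 in fl/fl and Cav1 at -2.42 and -6.46, while Cnn1, Myl9, Ankrd1 and Thy1 are the genes whose KO value lies below the fl/fl one. The open fl/fl symbol of Cavin2 is fitted against 0 counts.

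Between genotypes in EBd2, 5 of the 10 genes were called higher in KO (Acta2, Tagln, Lox, Cav1 and Postn) and 3 lower (Cnn1, Myl9 and Ankrd1), where 62.2% of all genes were called, 30.7% higher and 31.5% lower. Both KO libraries lay above both fl/fl libraries for 6 and below them for 3, against 40.2% and 39.6% of all genes. Acta2 and Ankrd1 were no longer called without KO lot 2, nor were Ankrd1 and Myl9, the second at -0.32, without KO lot 1. Acta2 was not called without fl/fl lot 1, nor were Myl9 and Ankrd1 without fl/fl lot 12. In ES cells 6 were called higher and the other 4 were not called, where 23.7% of all genes were called, 10.9% higher and 12.8% lower. Acta2, Tagln, Cnn1, Myl9, Cavin2 and Thy1 were the 6. Of 16 alternative settings, 8 lost the call of Cavin2, 6 that of Acta2, 5 that of Cnn1 and 3 that of Myl9. Tagln and Thy1 kept theirs. For all 10, both KO ES cell libraries lay above both fl/fl ones, as they did for 32.3% of all tested genes, and 32.3% lay the other way. The median log2 fold was 1.63 in EBd2 and 0.31 in ES cells, where that of all genes was 0.00 at both stages. The ES cell count was 3 or fewer without any 1 of the 4 ES cell libraries: 3 without KO lot 1, 2 without KO lot 12, and 3 without either fl/fl library. It was also 3 by DESeq2 and after thinning to one depth. The difference between the genotype effects at the 2 stages was called for 9 genes, 5 higher and 4 lower in EBd2, where 48.0% of all genes were called, 22.4% higher and 25.7% lower.

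**Figure D3:**
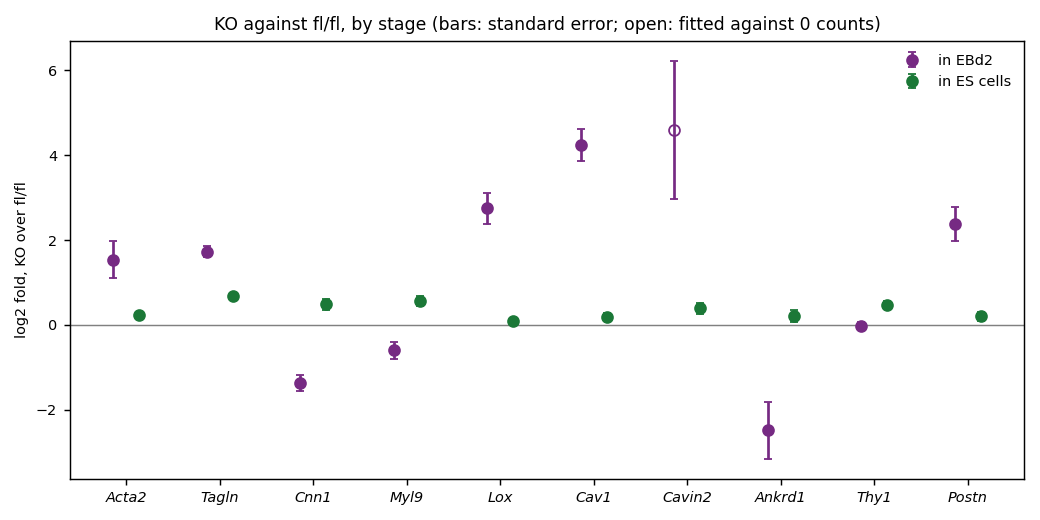
Log2 fold of KO over fl/fl for each gene in EBd2 (purple) and in ES cells (green), with standard errors. The ES cell values lie between 0.09 and 0.69, and those in EBd2 spread from -2.48 for Ankrd1 to 4.23 for Cav1, with Cavin2 drawn open because fl/fl EBd2 had 0 counts.

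The proportions among the genes were not the same in ES cells and embryoid bodies. In ES cells there were 0.434 counts of Acta2 per count of Lox in KO (95% exact counting interval 0.415 to 0.453) and 0.392 in fl/fl (0.374 to 0.411). KO EBd2 had 0.194 (0.131 to 0.281), below both, with 0.124 in lot 1 and 0.293 in lot 2, and fl/fl EBd2 had 0.450 (0.180 to 1.03). Cav1 moved the other way, with 0.711 counts per count of Lox in KO EBd2 (0.562 to 0.897) and 0.250 in fl/fl EBd2 (0.0733 to 0.686), against 0.215 in KO ES cells (0.203 to 0.228) and 0.201 in fl/fl ES cells (0.188 to 0.213). Tagln had 3.03 counts per count of Lox in KO EBd2 (2.56 to 3.61) and 6.20 in fl/fl EBd2 (3.85 to 10.5). In ES cells Tagln had 0.756 (0.729 to 0.785) in KO and 0.498 (0.477 to 0.521) in fl/fl. For Postn the ratio was 0.311 in KO EBd2 (0.226 to 0.422) and 0.400 in fl/fl EBd2 (0.152 to 0.948), against 0.113 (0.104 to 0.121) and 0.104 (0.0958 to 0.113) in KO and fl/fl ES cells. Each interval covers counting error only. The ratios in fl/fl EBd2 rest on 14 and 6 counts of Lox in the 2 libraries and moved by more than 1.5 times between them. By library (lot 1, lot 12) the fl/fl EBd2 ratio was 4.36 and 10.5 for Tagln, 0.214 and 1.0 for Acta2, 0.143 and 0.5 for Cav1, and 0.143 and 1.0 for Postn. For Tagln the KO EBd2 libraries had 2.25 and 4.13, and the second lies close to the lower fl/fl value.

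**Figure D4:**
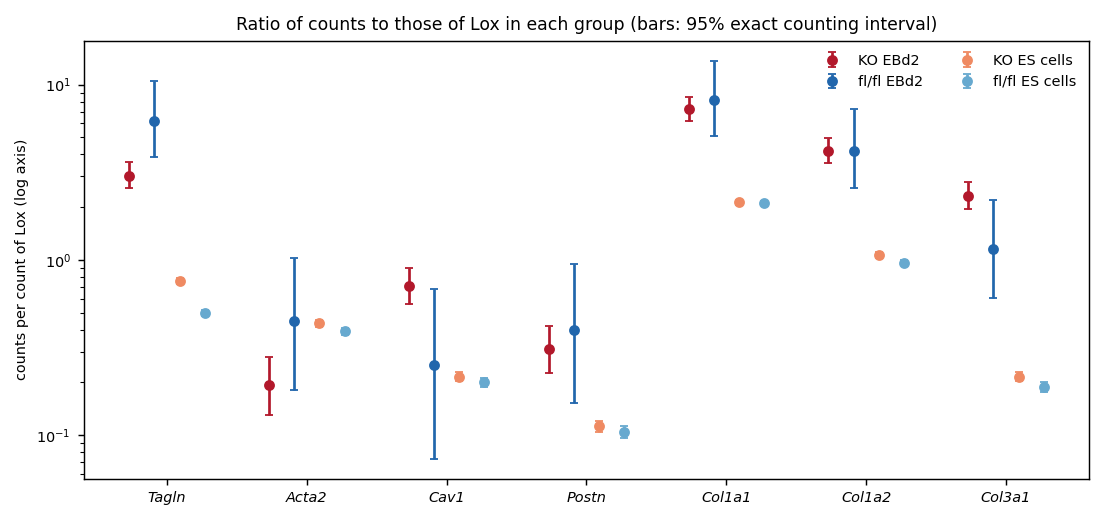
Counts of 4 of the genes and of 3 collagen chains per count of Lox in each group (log axis), with 95% exact counting intervals. Acta2 is the lone gene whose ratio in KO EBd2 lies below that in ES cells, and Col3a1 reaches 2.33 in KO EBd2 against 0.215 in KO ES cells.

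The list of 30 fibroblast identity and matrix genes was also higher in KO. It was fitted with the same model, and 29 of its genes passed the filter. The list was chosen with earlier results of these data known, and the genes named below had the smallest p in these contrasts. Its counts and p-values are therefore a description. In KO against fl/fl EBd2, 27 rose, beside 30.7% of all genes, and 2 were not called (median log2 fold 2.08). In ES cells 14 rose, beside 10.9% of all genes, and 15 were not called (median 0.25). In EBd2 against ES cells, 6 rose and 17 fell in KO (all genes, 31.7% and 33.1%), and 24 fell in fl/fl (all genes, 30.1%). Col6a1, a chain of collagen VI, was at 42.7 ± 4.14 CPM in KO EBd2 and 3.52 ± 0.403 CPM in fl/fl EBd2 (SD, n = 2 each), a rise of 3.59 ± 0.14 (adjusted p = 2.43e-09). The matricellular protein Sparc rose by 1.89 ± 0.04 in EBd2 (adjusted p = 2.65e-11) and 0.36 ± 0.03 in ES cells (adjusted p = 4.60e-05). The filament protein vimentin (Vim) rose by 1.68 ± 0.06 in EBd2 (adjusted p = 1.87e-09) and 0.26 ± 0.04 in ES cells (adjusted p = 0.000564), and the secreted protein Fstl1 by 0.33 ± 0.04 in ES cells (adjusted p = 0.000202). The ES cell count of 14 was 8 without the KO library of lot 12, 7 without the fl/fl library of lot 2 and 7 with lots as blocks.

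The median share of the ES cell level left in embryoid bodies was larger for the list than for the 10 genes. Its summed level was 2973 to 3153 CPM in KO EBd2, 1408 to 1451 CPM in fl/fl EBd2, 4801 to 5164 CPM in KO ES cells and 4659 to 4830 CPM in fl/fl ES cells. Of 26 of its genes with at least 100 counts in ES cells of each genotype, the median share of the ES cell level left in EBd2 was 53.5% in KO (range 5.94% to 554.0%) and 14.2% in fl/fl (1.19% to 91.1%). Over the 10 genes the median share was 17.3% in KO (1.64% to 98.0%) and 7.18% in fl/fl, from 0 for Cavin2 to 139.0% for Thy1. These shares were not tested against each other. Col3a1 was at 19.8 CPM in KO EBd2 and 1.43 CPM in fl/fl EBd2, against 32.0 CPM in KO ES cells and 26.4 CPM in fl/fl ES cells. The receptor Pdgfra, which fibroblasts share with primitive endoderm and mesoderm, was at 54.6 CPM in KO EBd2 and at 8.93 CPM in fl/fl EBd2, 9.85 CPM in KO ES cells and 10.4 CPM in fl/fl ES cells. Both were picked out after their values were seen.

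**Figure D5:**
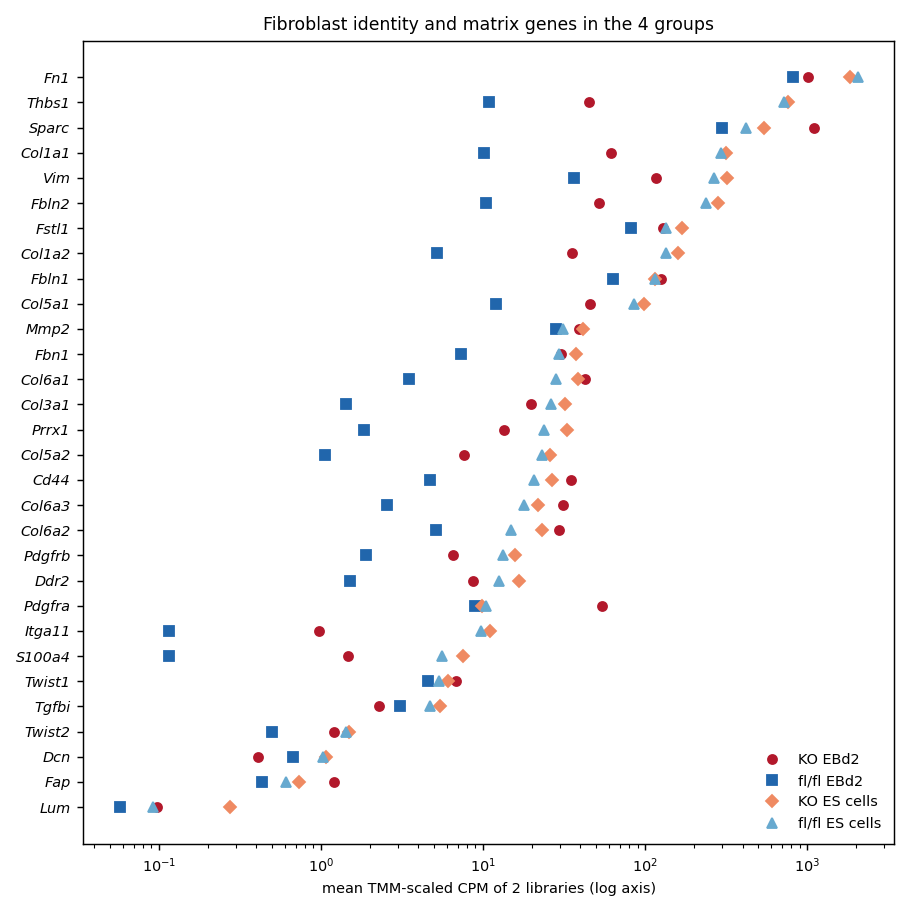
Mean TMM-scaled CPM (log axis) of 30 fibroblast identity and matrix genes in KO EBd2, fl/fl EBd2, KO ES cells and fl/fl ES cells, sorted by the level in fl/fl ES cells. The fl/fl EBd2 squares lie far left of the ES cell symbols for Thbs1, Col1a1 and Itga11, and Dcn, Fap and Lum are near or below 1 CPM in all groups.

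Summed levels of markers of other cell types that use these genes also differed between the groups. The counts below stand beside 30.7% of all tested genes that rose and 31.5% that fell in KO against fl/fl EBd2. Endoderm genes had a summed level of 3997 to 4093 CPM in KO EBd2 and 1173 to 1263 CPM in fl/fl EBd2, against 843.0 to 885.4 CPM in KO ES cells and 820.9 to 847.5 CPM in fl/fl ES cells. Most of the KO EBd2 sum came from the basement membrane genes Col4a1 (1294 CPM), Col4a2 (619.8 CPM), Lamb1 (588.6 CPM) and Lama1 (425.2 CPM). Cubn, at 541.3 CPM in KO EBd2 and 286.6 CPM in fl/fl EBd2, stood above Lama1. The rise was not confined to matrix genes. In KO against fl/fl EBd2, Gata4 was at 65.68 against 22.98 CPM, Gata6 at 41.1 against 7.114 CPM and Sox17 at 34.36 against 2.859 CPM. These genes were picked out after their values were seen. Of 15 endoderm genes tested, 14 rose in KO against fl/fl EBd2. The other gene fell, but was not called without either KO EBd2 library, without the fl/fl EBd2 library of lot 12, in the blocked fit or by DESeq2. Early mesoderm genes summed to 196.4 to 203.6 CPM in KO EBd2 and 46.8 to 51.4 CPM in fl/fl EBd2, against 52.0 to 52.6 CPM in KO and 46.1 to 46.6 CPM in fl/fl ES cells. Of 13 tested, 8 rose in EBd2 and 1 fell, the 1 not being called without KO EBd2 lot 1 or fl/fl EBd2 lot 12, by DESeq2, under the stricter filter, with library size scaling or in the fit of 4 libraries. The highest of the list in KO EBd2 were T, at 72.1 CPM against 1.09 CPM in fl/fl EBd2, and Eomes, at 63.3 against 15.1 CPM. Msgn1 and Meox1 were at 0 in fl/fl EBd2, and Msgn1 also in ES cells of both genotypes. Endothelial genes, with Emcn at 0 in all groups, summed to 250.6 CPM in each KO EBd2 library and 158.1 to 184.7 CPM in fl/fl EBd2. Of 8 tested, 5 rose and 3 fell. The 3 became 1 with library size scaling and with lots as blocks, and were also fewer without the fl/fl EBd2 library of lot 1.

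Muscle genes summed to 158.5 to 158.8 CPM in KO EBd2 and 95.8 to 96.5 CPM in fl/fl EBd2, against 117.5 to 118.7 CPM in KO and 102.4 to 102.5 CPM in fl/fl ES cells. Of 13 tested, 5 rose in EBd2 (all genes, 30.7%) and 3 in ES cells (all genes, 10.9%), and the others were not called. The 3 became 1 with lots as blocks and by DESeq2, and were also fewer without the fl/fl ES library of lot 1. The smooth muscle myosin Myh11, picked out after its values were seen because it defines smooth muscle, was between 0.115 and 2.41 CPM in the 8 libraries, near 0 beside Tagln. It rose in KO EBd2 by 2.70 ± 0.73 (adjusted p = 0.00729), on 27 counts against 3. Others of the list stood higher, with Smtn at 108.0 CPM in KO EBd2 and 60.8 CPM in fl/fl EBd2, and Des at 21.75 and 14.3 CPM. Myocd, Tnnt2 and Nkx2-5 stayed below 1 CPM in all libraries. Neural and lymphoid genes, which bear on Thy1, summed to 343.3 to 349.9 CPM in KO EBd2 and 148.5 to 155.3 CPM in fl/fl EBd2, against 303.7 to 315.6 CPM in KO and 255.4 to 263.3 CPM in fl/fl ES cells. The EBd2 gap rests mostly on Nefl, at 200.5 CPM in KO EBd2 and 16.4 CPM in fl/fl EBd2. Of 10 tested, 6 rose and 2, Tubb3 and Elavl3, fell in EBd2 (all genes, 30.7% and 31.5%). The 2 were not both called without KO EBd2 lot 2 or without either fl/fl EBd2 library. Nor were they in the blocked fit or with library size scaling. In ES cells 5 of the 10 rose. The 5 became 3 with lots as blocks and after thinning, and were also fewer without either KO ES library or the fl/fl ES library of lot 1. The part of these cell types in the levels of the 10 genes was not tested.

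The genes with the most similar course over the 8 libraries were found by the root mean square distance of centred log2 CPM, among tested genes with at least 5 CPM in their highest group. No neighbour is given for Acta2 and Cavin2, which were nearest to each other, because Cavin2 had 0 counts in fl/fl EBd2 and its log2 values there are set by the prior count. Lox was nearest to the collagen chain Col8a1 (0.37) and to thrombospondin Thbs1 (0.41), and Postn to Col1a1 (0.28) and the calcium-binding S100a4 (0.30). Tagln was nearest to the caveolar gene Cav2 (0.17) and the activin subunit Inhbb (0.21), and Cav1 to the matrix protein Ccdc80 (0.42) and the adhesion molecule Vcam1 (0.50). Col8a1, at 0.193 CPM, and S100a4, at 0.115 CPM, were themselves close to 0 in fl/fl EBd2. So were Cav1 (0.308 CPM), its neighbours Ccdc80 (0.443 CPM) and Vcam1 (0.250 CPM), and Postn (0.481 CPM). These distances therefore depend in part on the prior count. That holds for Ankrd1 too, which had 2 counts in KO EBd2 and was nearest to the matrix protease Adamts5 (0.49) and to Rgcc (0.58). Cnn1 was nearest to Rab3b and Aif1l (0.13 each), Myl9 to Hcn3 and Snhg4 (0.17 each), and Thy1 to Slc24a1 (0.07) and Ankrd6 (0.08). Cnn1, Myl9 and Thy1 also varied the least of the 10, with SDs of 0.57, 0.50 and 0.21 (log2) over the libraries.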

How the data were processed

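Poly(A) RNA was measured in 8 libraries, 2 in each of 4 groups set from the sample titles. The deposited table holds raw counts per gene symbol, whole numbers with no normalization, for 36255 genes. The submitters' processing notes name Trim Galore 0.6.7, GRCm38 and mm10. The sources used here do not give the aligner, counter, annotation or strand setting.

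In R 4.3.3, edgeR 4.0.16 (filterByExpr, TMM, glmQLFit and glmQLFTest, two-sided) was fitted to all libraries with 4 group means, and 16542 genes were tested at a Benjamini-Hochberg adjusted p of 0.05. Standard errors are the absolute log2 fold divided by the square root of F. The common biological coefficient of variation was 3.4%, and replicate pairs differed by more than sampling noise (chi-square per degree of freedom 2.12 to 2.81). Exon lengths and coordinates are from GENCODE vM21 (GRCm38), in which 95.9% of symbols occur once. A level of 0 is bounded by 3 counts over a group.

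The 10 genes and all lists were chosen with earlier results of these data known. Named genes are the 10, and from each partner list up to 3 called genes of smallest p per genotype contrast, of which 1 is not reported here. Alternatives were RLE or library size scaling, 2 other filters, lots as blocks, thinning, DESeq2 1.42.0, fits of 4 libraries and leaving out each library. With 1 library left in a group, it was assumed to vary like the others.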

Additional observations from a re-analysis of the deposited data

Results flagged for a closer look

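The KO against fl/fl difference was not the same in EBd2 and in ES cells for 9 of the 10 genes and for 24 of 27 named partner genes, by the interaction term of the edgeR quasi-likelihood fit (adjusted over all 16542 genes). The term was called for 48.0% of all genes, and the partner genes had been picked for the smallest p in the same genotype contrasts, so their share is not independent of that choice. Values are the log2 fold of KO over fl/fl in EBd2 minus that in ES cells, and those of the 10 genes are a description. Among the 10, the difference was higher in EBd2 for Acta2 (1.30), Tagln (1.03), Lox (2.66), Cav1 (4.05) and Postn (2.18), and lower for Cnn1 (-1.87), Myl9 (-1.16), Ankrd1 (-2.69) and Thy1 (-0.51). Acta2 was no longer called without the KO EBd2 library of lot 2 (0.94), fl/fl EBd2 lot 1 (0.99) or fl/fl EBd2 lot 12 (1.76), nor Ankrd1 without the KO library of lot 2 (-2.63) or the fl/fl library of lot 12 (-2.24), or by DESeq2 (-2.77). Thy1 stood at -0.39 with lots as replicate block and was then not called.

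Fibroblast genes with a difference were Sparc (1.53), Fstl1 (0.34), Vim (1.42) and Col6a1 (3.13). Among contractile partners they were Acta1 (-1.43), Cald1 (1.48), Csrp1 (1.43) and Actg1 (-0.80), and the Acta1 call was lost without the KO EBd2 library of lot 1 or the fl/fl EBd2 library of lot 12, with lots as replicate block, by DESeq2 and with library size scaling. Caveolar partners were Cavin1 (2.22), Ehd2 (0.97), Cav2 (1.19) and Pacsin2 (0.32), with Cav2 lost without the KO EBd2 library of lot 2 or either fl/fl EBd2 library, with lots as replicate block and by DESeq2, and Pacsin2 without the fl/fl EBd2 library of lot 1. Matrix cross-linking genes were Bmp1 (2.55), Ltbp1 (-0.85), Efemp2 (0.61), Loxl2 (1.26) and Loxl4 (4.46). YAP and TEAD genes were Ccn1 (1.40), Axl (1.34), Wwtr1 (1.12) and Tead2 (-0.74), and TGF-beta genes were Ski (-0.39), Tgfb1 (1.87) and Skil (-1.16). Causes were not tested.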

How the results depend on the processing

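Of 788 folds of the 10 genes recomputed under the alternatives, 734 kept their direction and side of the threshold, 42 lost and 5 gained a call, and 7 changed sign, all of Thy1. Thy1 in KO against fl/fl EBd2 stood at 0.20 with library sizes only, 0.0117 under the stricter filter and 0.0327 with lots as replicate block, and ranged from -0.122 to 0.0822 without 1 library, positive without the fl/fl EBd2 library of lot 12. In EBd2 against ES cells in KO it stood at 0.12, 0.00183 and 0.0289 under the first 3 of these. The 6 calls in ES cells between genotypes became 3 after thinning and 3 by DESeq2, and 2 to 6 when 1 library was left out. The 8 calls in EBd2 became 6 to 8, the 9 of EBd2 against ES cells in fl/fl 8 to 9, those in KO stayed at 9, and the 9 of the interaction became 7 to 9. Fibroblast list genes higher in KO numbered 14 in ES cells, 7 with lots as replicate block and 7 to 15 without 1 library, and 27 in EBd2, 24 to 26 without 1 library. The cause of these moves was not tested, beyond the fewer libraries or counts. The lots share only number 1 between compared groups, and deviations of lot 1 from the group means were uncorrelated (r from -0.0223 to 0.0183), so lots were not taken as pairs. Library size scaling shifted the median of all genes by 0.23 in KO against fl/fl EBd2 and by 0.14 in EBd2 against ES cells in KO. Depth limits Acta2, Cav1, Cavin2, Ankrd1 and Postn in fl/fl EBd2, which held fewer than 10 counts of each.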
